A study of Mus musculus with 6 samples.

Results

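The genes described here are regulators, a cytokine receptor, a heme enzyme and membrane proteins of developing red blood cells, read in RNA of mouse fetal ovaries. They were chosen by symbol, and 7 of the 8 genes named by that choice were matched to a row among the 48709 genes of the count table: Gata1, Klf1, Epor, Alas2, Slc4a1, Ank1 and Epb42. Ahsp, the alpha-globin chaperone, was not analysed here. All 7 matched genes passed the expression filter of the test, with raw counts per library from 61 to 15083.

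Pregnant CD1 mice, an outbred stock, received acetaminophen (APAP, 30 mg/kg/day) and ibuprofen (IBU, 15 mg/kg/day) in alternating gavages every 3 h, 4 per day, from 10.5 to 13.5 days post coitum (dpc), or the ethanol diluent on the same schedule as control. Ovaries were taken from wild-type female embryos at 13.5 dpc, and messenger RNA of 3 control and 3 APAP+IBU pools was sequenced, each pool holding gonads of several embryos from a pair of dams. The titles of the exposed samples name only IBU, while their exposure label names both drugs. Libraries are called control 1 to 3 and APAP+IBU 1 to 3 below, by group and replicate number.

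Red blood cells of a 13.5 dpc mouse embryo are of a primitive lineage, born in the yolk sac and circulating while they mature, and of a definitive lineage that expands in the fetal liver and has begun to enter the blood. GATA1 and KLF1 are the transcription factors that switch on the erythroid program, including the genes for globins, heme synthesis and the membrane skeleton, by binding GATA and CACCC motifs. Red blood cells are not a product of the ovary, which they reach through its vessels.

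Since the erythroid program is known for such motifs in its promoters, the 250 bases upstream of the RefSeq start (GRCm38.p6) were read for 5 of the 7 genes with an entry, on the strand of the gene. The motifs searched were GATAA, which reads TTATC on the other strand, and CACCC, which reads GGGTG there. Both strands were searched, the motifs did not overlap, and the matching letters are in capitals below. The windows of Klf1, Alas2 and Epor held both motifs and are shown with that of Gata1, which held CACCC only. They lie at chr8:84901732-84901981 (plus strand) for Klf1, chrX:150547167-150547416 (plus strand) for Alas2, chr9:21963577-21963826 (minus strand) for Epor and chrX:7967911-7968160 (minus strand) for Gata1, the last inside the longer Gata1 model of GENCODE.
Klf1: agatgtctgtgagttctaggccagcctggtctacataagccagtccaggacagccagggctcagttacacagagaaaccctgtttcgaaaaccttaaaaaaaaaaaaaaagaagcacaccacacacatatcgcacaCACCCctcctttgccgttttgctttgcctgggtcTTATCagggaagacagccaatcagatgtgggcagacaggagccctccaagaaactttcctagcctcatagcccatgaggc
Alas2: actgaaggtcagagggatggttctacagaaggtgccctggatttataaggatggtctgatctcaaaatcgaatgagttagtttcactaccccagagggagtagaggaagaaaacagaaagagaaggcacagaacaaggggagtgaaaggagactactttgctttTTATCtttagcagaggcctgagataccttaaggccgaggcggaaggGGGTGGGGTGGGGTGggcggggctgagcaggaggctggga
Epor: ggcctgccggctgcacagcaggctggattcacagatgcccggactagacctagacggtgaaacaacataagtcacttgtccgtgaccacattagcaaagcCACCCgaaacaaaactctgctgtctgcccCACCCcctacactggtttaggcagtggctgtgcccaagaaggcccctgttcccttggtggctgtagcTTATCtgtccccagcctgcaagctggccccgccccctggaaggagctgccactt
Gata1: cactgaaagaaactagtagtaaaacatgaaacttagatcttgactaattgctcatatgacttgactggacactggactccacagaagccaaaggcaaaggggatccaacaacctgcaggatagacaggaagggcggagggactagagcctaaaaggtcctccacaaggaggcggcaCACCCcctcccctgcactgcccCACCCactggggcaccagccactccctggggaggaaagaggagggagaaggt
In Klf1 the CACCC began 114 bases and the TTATC 80 bases before the start. In Alas2 the TTATC began 86 bases before the start, and 3 adjoining GGGTG copies followed from 40 bases before it. The windows of Klf1, Alas2 and Epb42 reach past the start of their GENCODE models, and these GGGTG copies lie inside that of Alas2. The 2 CACCC copies of Epor began 150 and 121 bases before the start and its TTATC 54 bases before it. The window of Epb42 held only a TTATC, 226 bases before the start. Of 32851 promoter windows of this length, 22.6% held GATAA, 52.0% held CACCC and 10.1% held both, so a match is a description of letters and not of a bound site.

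Library totals ran from 37811968 to 48954631 counts, and 20167 genes were tested. Both libraries numbered 3 stood apart from the other 4: the summed level of 20 hepatocyte markers was 281, 599 and 2214 CPM (a count scaled to the library total with TMM factors) in control 1, 2 and 3 and 214, 431 and 3596 CPM in APAP+IBU 1, 2 and 3. Markers of the ovary varied less, 10 somatic genes summing to 1200.4 to 1707 CPM and 10 fetal germ cell genes to 1466 to 1836 CPM. All 12 genes listed as spermatid markers, of which some are also expressed elsewhere, were lower in APAP+IBU, with a median log2 fold change of -4.26 and a smallest adjusted p of 0.0906 in edgeR's quasi-likelihood test. DESeq2 called 11 of these 12, against 0.952% of all genes. With replicates 1 and 2 only, edgeR also called 11, against 27.2% of all genes. Group comparisons below are given with all 6 libraries and without the libraries numbered 3.

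The erythroid genes spread widely within both groups. In all 7 genes the highest library was APAP+IBU 3, the next was control 3, and the lowest was APAP+IBU 1. The fold between the highest and the lowest library ran from 5.29 for Alas2 to 18.1 for Klf1 and Slc4a1, with a median of 10.3, against a median of 1.59 over the 16060 genes with a mean of at least 1 CPM. In bulk RNA, fewer cells of a type and less RNA per cell cannot be told apart.

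**Figure D1:**
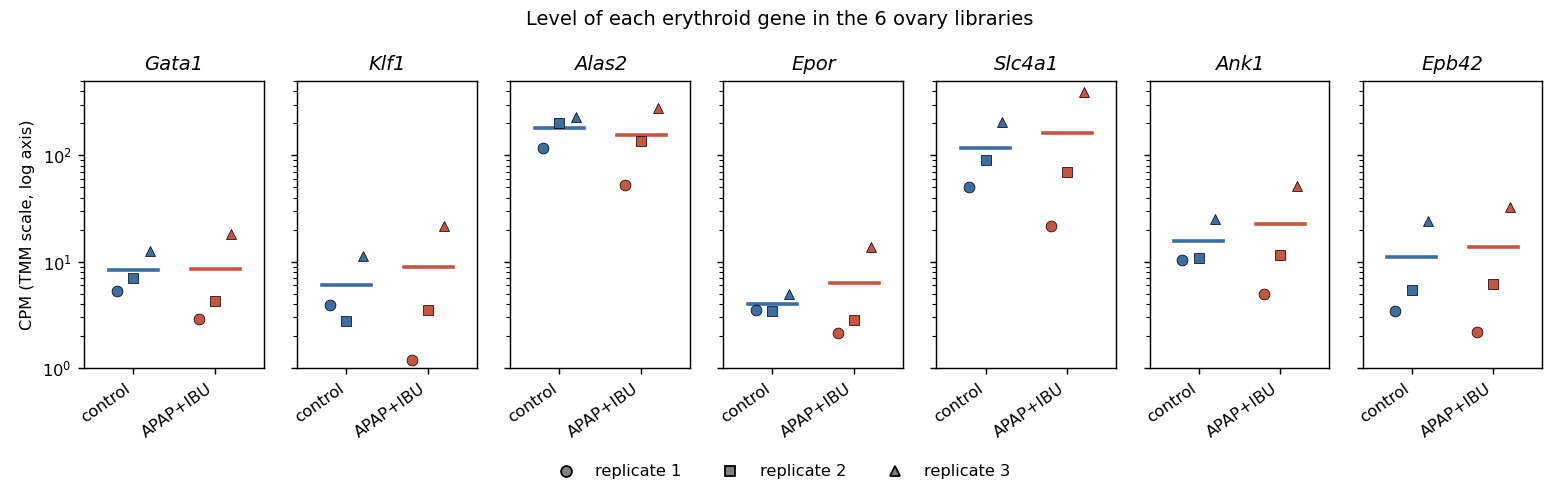
Level of each gene in CPM (log axis) in the 3 control libraries (blue) and the 3 APAP+IBU libraries (red), with the marker shape giving the replicate number and the bar the group mean. In every panel the triangle of replicate 3 is the highest point of its group, and the groups overlap.

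Gata1 (ENSMUSG00000031162, GRCm38 chromosome X, 7959260 to 7978071, minus strand) encodes the master zinc finger factor of red cells, which megakaryocytes and mast cells also express. Its level was 5.27, 6.98 and 12.7 CPM in control 1, 2 and 3 and 2.88, 4.30 and 18.3 CPM in APAP+IBU 1, 2 and 3. The lowest and the highest library were both exposed ones, and the means, with the SD of 3 libraries, were 8.33 ± 3.91 CPM for control and 8.48 ± 8.5 CPM for APAP+IBU. For Gata1 the log2 fold change, APAP+IBU over control, came to 0.02 with a standard error of 0.66, an edgeR adjusted p of 0.993 and a 95% interval from -1.51 to 1.55.

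Klf1 (ENSMUSG00000054191, chromosome 8, 84901928 to 84905291, plus strand) encodes the erythroid Krüppel-like factor, which activates adult beta-globin and many membrane genes. It was at 3.96, 2.76 and 11.5 CPM in the 3 control libraries and at 1.20, 3.56 and 21.8 CPM in the 3 APAP+IBU libraries. The control mean was 6.06 ± 4.72 CPM and the APAP+IBU mean 8.85 ± 11.3 CPM (SD, n = 3 each), and 1 exposed library lay above all controls while another lay below them all. Klf1 had a log2 fold change of 0.54 (standard error 0.96, edgeR adjusted p = 0.855, 95% interval from -1.67 to 2.75).

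Epor (ENSMUSG00000006235, chromosome 9, 21958897 to 21963506, minus strand) encodes the receptor for erythropoietin, the hormone that keeps red cell precursors alive. The control libraries were close together at 3.51, 3.45 and 4.99 CPM, and the APAP+IBU libraries spread over 2.13, 2.81 and 13.8 CPM. APAP+IBU 3 alone was above the control libraries and the other 2 exposed libraries were below them. The SD was 0.874 CPM around a mean of 3.99 in control and 6.57 CPM around a mean of 6.26 in APAP+IBU (n = 3 each). The log2 fold change of Epor was 0.64 (standard error 0.66, edgeR adjusted p = 0.757, 95% interval from -0.87 to 2.16).

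Alas2 (ENSMUSG00000025270, chromosome X, 150547375 to 150570638, plus strand) encodes the erythroid 5-aminolevulinate synthase, the first enzyme of heme synthesis in red cells. Its level was 118, 201 and 229.5 CPM in control 1, 2 and 3 and 52.9, 138 and 279.7 CPM in APAP+IBU 1, 2 and 3. It had the narrowest range of the 7 genes, and it was the one gene whose mean was lower in APAP+IBU, 157 ± 115 CPM against 183 ± 57.7 CPM (SD, n = 3 each). For Alas2 the log2 fold change was -0.22 (standard error 0.52, edgeR adjusted p = 0.888, 95% interval from -1.42 to 0.98). Of its exon length, 12.9% is shared with Apex2 on the opposite strand, which had at most 22.3 CPM, and the strand setting of the counting is not given in the sources used here.

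Slc4a1 (ENSMUSG00000006574, chromosome 11, 102348824 to 102366203, minus strand) encodes band 3, the anion exchanger of the red cell membrane. It was measured at 51.0, 91.3 and 207 CPM in the control libraries and at 21.7, 69.2 and 392 CPM in the APAP+IBU libraries. Together with Klf1 it had the widest range over the 6 libraries, and only APAP+IBU 3 lay above control 3. The log2 fold change of Slc4a1 was 0.47 (standard error 0.93, edgeR adjusted p = 0.869, 95% interval from -1.67 to 2.61), with means of 116 ± 80.8 CPM in control and 161 ± 202 CPM in APAP+IBU (SD, n = 3 each).

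Ank1 (ENSMUSG00000031543, chromosome 8, 22974844 to 23150497, plus strand) encodes ankyrin, which ties band 3 to the spectrin skeleton. Its level was 10.4, 10.9 and 25.5 CPM in control and 4.96, 11.6 and 51.2 CPM in APAP+IBU, so that replicate 2 of both groups was nearly equal. Ank1 had means of 15.6 ± 8.56 CPM in control and 22.6 ± 25 CPM in APAP+IBU (SD, n = 3 each), and its log2 fold change was 0.53 (standard error 0.77, edgeR adjusted p = 0.814, 95% interval from -1.23 to 2.30).

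Epb42 (ENSMUSG00000023216, chromosome 2, 121017891 to 121037072, minus strand) encodes protein 4.2, which stabilises the contact of band 3 with ankyrin. It was at 3.43, 5.40 and 24.2 CPM in control 1, 2 and 3 and at 2.19, 6.13 and 33.0 CPM in APAP+IBU 1, 2 and 3. Control 3 held 5.47 times the mean of control 1 and 2, the largest such step among the 7 genes, where the smallest was 1.43 for Epor. The log2 fold change of Epb42 was 0.32 (standard error 1.0, edgeR adjusted p = 0.92, 95% interval from -2.0 to 2.63), with means of 11 ± 11.4 CPM and 13.8 ± 16.7 CPM (SD, n = 3 each).

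edgeR called 0 of the 7 genes at an adjusted p under 0.05, and 0.0% of all tested genes, and 0 of 7 had an unadjusted p under 0.05, against 6.22% of all tested genes. DESeq2 called 0 of 7 as well, against 0.952% of all genes. Control and APAP+IBU overlapped in all 7, while 10.7% of all tested genes had no overlap, 4.78% with APAP+IBU higher and 5.92% with APAP+IBU lower. The median log2 fold change was 0.47 over the 7 genes and 0.00 over all tested genes. The intervals, from the fit that ignores replicate numbers, are wide. They reach down to 0.251 times control for Epb42 and up to 6.72 times control for Klf1. Differences inside each gene's own interval are compatible with these 6 libraries, and an exact permutation test of 3 against 3 could not give a p below 0.1.

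The sign of the difference depended on APAP+IBU 3 for 6 of 7 genes, while Alas2 was lower with and without that library. No gene changed sign when control 3 alone was left out. Gata1 and Epb42 also changed sign without control 1 or control 2. With replicates 1 and 2 of each group, all 7 genes were lower in APAP+IBU, with log2 fold changes of -0.75 for Gata1, -0.49 for Klf1, -0.48 for Epor, -0.73 for Alas2, -0.64 for Slc4a1, -0.34 for Ank1 and -0.08 for Epb42, although Klf1 and Epor were at 0.15 and 0.07 once gene length and GC content were corrected. In that fit edgeR called 0 of the 7 at an adjusted p under 0.05, against 27.2% of its 20633 genes, and 1 of 7 at an unadjusted p under 0.05, against 41.0%. That gene was Gata1, with an edgeR adjusted p of 0.0814. Without APAP+IBU 3 alone, all 7 were again lower, from -0.72 for Epor to -1.43 for Epb42, with edgeR adjusted p from 0.409 to 0.5. Gata1 and Epor were then at an unadjusted p under 0.05 in edgeR, against 11.4% of all genes. Without control 3 alone, 6 of 7 were higher, up to 1.63 for Epb42, with Alas2 at -0.02.

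**Figure D2:**
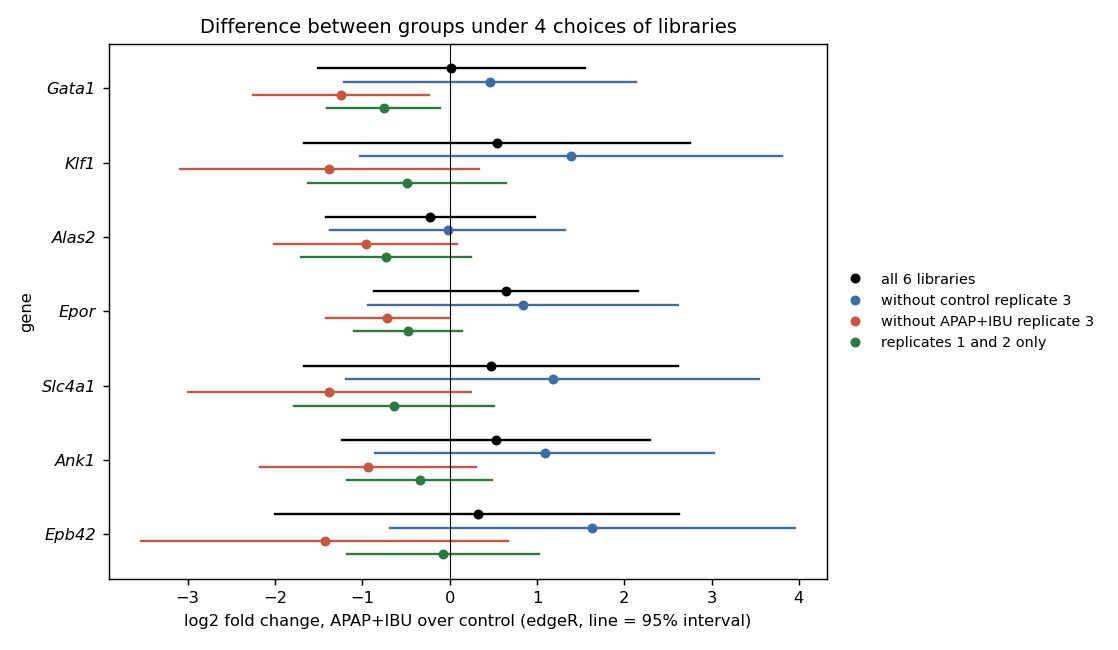
Log2 fold change of each gene, APAP+IBU over control, from edgeR with its 95% interval (line), for all 6 libraries and for 3 smaller choices of libraries. Points lie right of 0 for 6 of 7 genes with all 6 libraries and left of 0 for all 7 when APAP+IBU 3 or both libraries numbered 3 are left out.

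Both libraries numbered 3 were above the other 4 in 7 of 7 genes, where this held for 8.28% of the 16060 genes with a mean of at least 1 CPM. In 4 of the 7, each of these libraries was at least 2 times as high as each of the others, against 0.747% of those genes. APAP+IBU 3 held between 2.94 times (Alas2) and 9.16 times (Klf1) the mean of APAP+IBU 1 and 2. At the other end, APAP+IBU 1 was the lowest library for 7 of 7 genes and for 16% of all those genes. These counts describe the 6 libraries. The sources used here do not say whether libraries of the same number came from the same experiment.

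Per length of exon, the whole order of the 7 genes was the same as that of the means only in APAP+IBU 2 and APAP+IBU 3, with neighbours changing places elsewhere. In mean RPKM over the 6 libraries (CPM divided by the exon length in kilobases), Alas2 was first with 70.6, followed by Slc4a1 with 28.4, Klf1 with 4.87, Gata1 with 3.45, Epor with 2.58, Epb42 with 2.29 and Ank1 with 1.41. Alas2 was above Slc4a1, Slc4a1 above Klf1 and Gata1 above Epor in 6 of 6 libraries. Klf1 and Gata1 changed places in 2 libraries, and the neighbours Epor and Epb42, and Epb42 and Ank1, in 1 library each. The RPKM of Ank1 rests on an exon length of 13527 bases over all its transcripts, the longest of the 7.

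The genes did not move in one fixed proportion. Alas2, at the head of heme synthesis, was used as the reference, and the reads of each gene per 100 Alas2 reads were compared within a library. Slc4a1 had 43.1, 45.5 and 90.1 reads per 100 Alas2 reads in control 1, 2 and 3 and 41.0, 50.3 and 140.3 in APAP+IBU 1, 2 and 3. The 4 libraries numbered 1 and 2 lay within a narrow band, and both libraries numbered 3 lay well above it. Epb42 showed the same split, with 2.90, 2.69 and 10.5 in control and 4.13, 4.46 and 11.8 in APAP+IBU. Klf1 had 3.35, 1.37 and 4.99 in control and 2.27, 2.59 and 7.79 in APAP+IBU, and Ank1 had 8.78, 5.43 and 11.1 in control and 9.39, 8.46 and 18.3 in APAP+IBU. In both of these genes replicate 3 was again the highest of its group. Gata1 stayed nearer to Alas2, between 3.13 and 6.53 reads per 100 Alas2 reads over the 6 libraries, and Epor ran from 1.72 in control 2 to 4.95 in APAP+IBU 3. For Epor the second highest library was APAP+IBU 1, at 4.02, and not control 3, at 2.18.

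**Figure D3:**
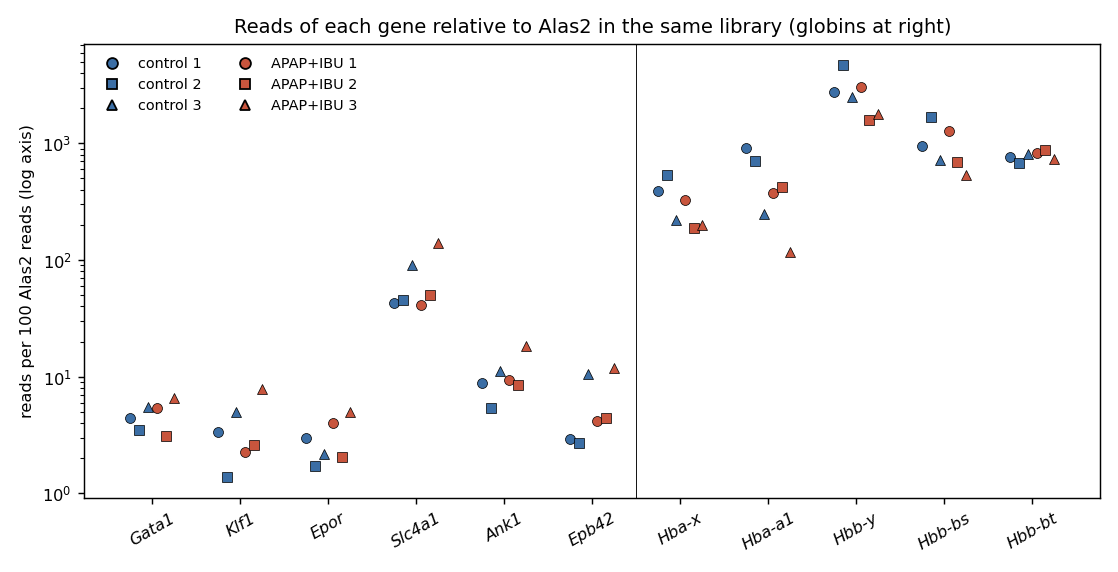
Reads of each gene per 100 Alas2 reads of the same library (log axis), for the other 6 erythroid genes (left) and 5 globins (right), by library. Slc4a1 and Epb42 are highest in both replicate 3 libraries, Hba-a1 is lowest in them, and Hbb-bt stays between 683 and 874.

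Among pairs of the 7 genes, Gata1 and Ank1 kept the most even ratio, with an SD of 0.34 over the 6 libraries in the difference of their log2 CPM. The loosest pairs were Alas2 and Epb42 (0.91) and Klf1 and Alas2 (0.88), the ratio of the last varying 5.63-fold. Measured against the mean log2 CPM of the 7 genes, Ank1 followed it most closely, with an SD of 0.12, and Alas2 least, with 0.52, where the median of all genes was 1.21. Each of the 7 is itself part of that mean. Because the mean varied widely over the libraries, any gene with an even level lies far from it. The median of 1.21 therefore does not measure how closely the 7 followed each other.

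Outside the 7, the genes whose pattern over the 6 libraries was nearest to their mean were Car2 and Tmod1 (SD of 0.16 each), Tspo2 (0.17), Sowaha (0.18), Kcnn4 (0.19), Trim10 (0.20), Pla2g12b (0.22), Igfbp1 (0.23), Rhd (0.24) and Prodh2 (0.25). Car2, the cytosolic carbonic anhydrase of red cells and of other tissues, was at 35.8, 45.0 and 133.9 CPM in control and 20.2, 44.5 and 185 CPM in APAP+IBU. Tmod1, the tropomodulin that caps actin filaments of the membrane skeleton, and Rhd, the Rhesus blood group protein, are red cell membrane genes. Of these 10 genes, 5 belong to the other erythroid lists used here, while Kcnn4 is the Gardos potassium channel of red cells and other cells and Igfbp1 is a secreted protein known from the liver. Sowaha, Pla2g12b and Prodh2 were not assigned to a cell type here. Levels were low for Sowaha, Pla2g12b and Igfbp1, which reached at most 3.15, 4.11 and 2.7 CPM.

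The globins, the products that the erythroid program is built to make, followed another order. Their summed level was 6876.5, 16924 and 10465 CPM in control 1, 2 and 3 and 3108, 5213 and 9457 CPM in APAP+IBU 1, 2 and 3, so that control 2 and not APAP+IBU 3 was the highest. The 7 genes together had 28.5, 19.0 and 49.2 CPM per 1000 CPM of globin in control and 28.3, 45.1 and 85.6 in APAP+IBU, and the groups overlapped. All 8 tested globins were lower in APAP+IBU, with a median log2 fold change of -1.07. Of them 0 had an edgeR adjusted p under 0.05, and 3 had an edgeR unadjusted p under 0.05, against 6.22% of all genes. DESeq2 called 1, Hba-a1, at an adjusted p under 0.05, against 0.952% of all genes. With replicates 1 and 2 only, edgeR called 6 of the 8 lower, with a median of -1.67, against 12.9% of all genes called lower. After the length and GC correction it called 0 in either direction, against 14.6% of all genes, and the median was -1.14.

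The relation to Alas2 differed from globin to globin. Hbb-bt, an adult beta-globin, had 764, 683 and 812 reads per 100 Alas2 reads in control and 824, 874 and 736 in APAP+IBU, a 1.28-fold range, narrower than that of any of the other 6 erythroid genes. Hbb-y, the embryonic beta-like globin of primitive red cells, had 2735, 4724 and 2513 in control and 3025, 1572 and 1766 in APAP+IBU. Hba-a1, an adult alpha-globin, had 907, 706 and 248 in control and 372, 426 and 118 in APAP+IBU, so that it was lowest where Slc4a1 and Epb42 were highest. Hba-a1 and Hba-a2, and Hbb-bs and Hbb-bt, are near-identical copies among which the counting could have split or dropped reads, so the values of each one are uncertain.

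**Figure D4:**
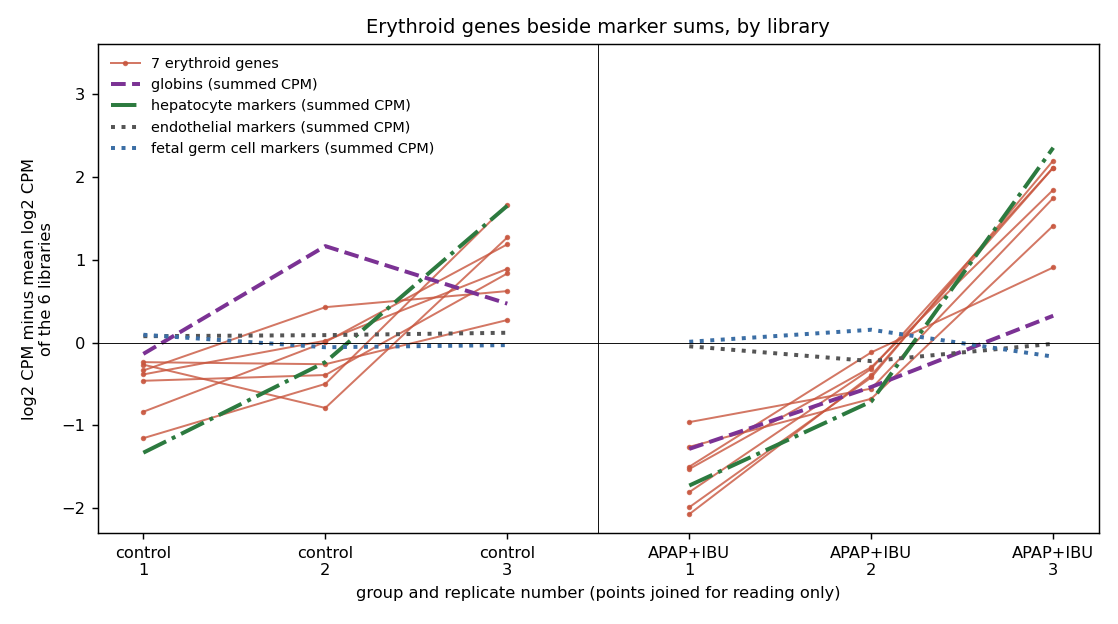
Log2 CPM of each of the 7 erythroid genes minus its mean over the 6 libraries (thin red lines), beside the same for the summed CPM of 4 gene lists, by library. The 7 genes and the hepatocyte markers peak in both replicate 3 libraries, globins peak in control 2, and endothelial and germ cell markers stay near 0.

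The liver is the site of definitive red cell production at this stage. Like the 7 genes, hepatocyte markers were highest in the libraries numbered 3. All 20 were higher in both libraries numbered 3 than in the other 4, 18 of 20 were higher in APAP+IBU than in control, their median log2 fold change was 0.58, and 0 of 20 had an unadjusted p under 0.05 in edgeR or were called by DESeq2. With replicates 1 and 2 only, 10 of 20 were higher and 10 lower, and the median was -0.04. The 7 genes were all lower in that fit, with a median of -0.49. In that fit edgeR called 1 of 20, lower in APAP+IBU, against 12.9% of all genes called lower. Alb, serum albumin, was at 23.7, 49.4 and 691 CPM in control and 19.5, 104.6 and 1264 CPM in APAP+IBU. Afp, the alpha-fetoprotein, was at 153, 365 and 888 CPM in control and 125, 187 and 1280 CPM in APAP+IBU. The part of liver RNA in the levels of the 7 genes was not tested.

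Megakaryocytes and mast cells also express Gata1, so their markers were read. The 10 megakaryocyte and platelet markers summed to 12.8 to 33.7 CPM, were higher in APAP+IBU in 5 of 10, and in 2 of 10 were higher in both libraries numbered 3. With all 6 libraries, 1 of 10 had an edgeR unadjusted p under 0.05, against 6.22% of all genes. With replicates 1 and 2 only, all 10 were lower and edgeR called 2 of them, or 0 after the length and GC correction. Among all genes of that fit, 12.9% were called lower, and 14.6% were called in either direction after the correction. These shares also stand beside the counts of the lists that follow. Of 10 mast cell markers 3 passed the expression filter, Mcpt1 was at 0 in every library, Tpsb2 had at most 0.472 CPM, and the sum of 10.6 to 53.8 CPM was mostly that of Hdc, histidine decarboxylase. The 10 macrophage markers summed to 85.6 to 133 CPM and all 10 were lower in APAP+IBU. Of them 2 had an edgeR unadjusted p under 0.05, against 6.22% of all genes, and DESeq2 called 1, Aif1, against 0.952%. On replicates 1 and 2 alone, edgeR called 4 of the 10 lower, or 0 after the length and GC correction. The 10 endothelial markers summed to 469.9 to 595.5 CPM, 9 of 10 were lower in APAP+IBU, and none was highest in both libraries numbered 3. On replicates 1 and 2 alone, edgeR called 3 of the 10 endothelial markers lower, and 2 of the 10 after the length and GC correction. The 10 genes listed as Sertoli cell markers summed to 62.8 to 134 CPM, and 9 of 10 were lower in APAP+IBU. With all 6 libraries, 3 of these 10 had an edgeR unadjusted p under 0.05, against 6.22% of all genes. With replicates 1 and 2 only, edgeR called 7 of them lower, or 3 after the length and GC correction. The list includes Dmrt1, which the paper describes in female germ cells. The part of these cells in the levels of the 7 genes was not tested.

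**Figure D5:**
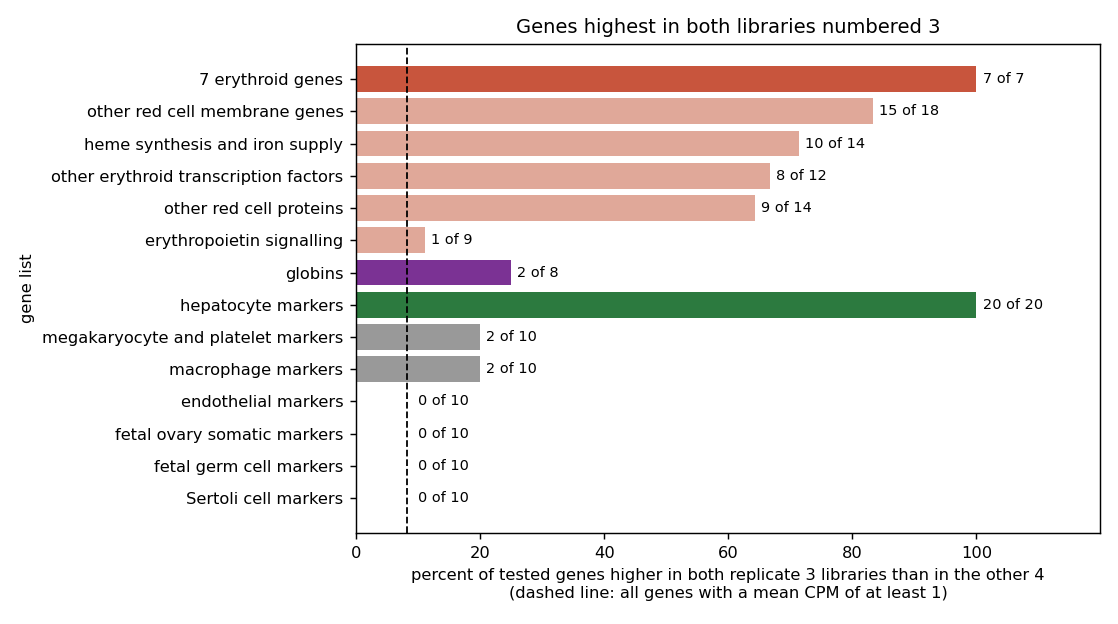
Percent of the tested genes of each list that were higher in both replicate 3 libraries than in each of the other 4, with the counts at the bars and a dashed line at the share among all genes with a mean of at least 1 CPM (8.28%). The 7 erythroid genes and the hepatocyte markers reach 100% of their lists, other erythroid lists lie between, and lists of ovarian and endothelial cells are at 0.

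Other genes of the erythroid program were read by role. With all 6 libraries, edgeR called 0 of the 67 tested at an adjusted p under 0.05, 0 had an unadjusted p under 0.05, and DESeq2 called 0. Of the 67, 45 were higher and 22 lower in APAP+IBU, with a median log2 fold change of 0.11. As for the 7 genes, that tally turned with the libraries chosen, to 16 higher and 51 lower (median -0.19) with replicates 1 and 2 only and to 13 higher and 54 lower (median -0.39) without APAP+IBU 3. Under the replicate block it was 29 higher and 38 lower (median -0.04).

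Of 12 other transcription factors of the lineage, 8 were highest in both libraries numbered 3, and the median log2 fold change was 0.01, or -0.17 with replicates 1 and 2 only. The most abundant were factors that many cell types use, among them Ldb1, the LIM domain cofactor, at 147 to 226 CPM, and Foxo3, at 118 to 136 CPM. Both had less than a 2-fold range over the libraries. Zfpm1, which encodes the GATA1 partner FOG1, was at 31.2, 21.5 and 17.4 CPM in control and 15.8, 22.5 and 32.4 CPM in APAP+IBU, and so was lowest of its group in control 3.

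Of 14 genes of heme synthesis and iron supply, 12 were higher in APAP+IBU, 10 were highest in both libraries numbered 3, and the median log2 fold change was 0.17. Without the libraries numbered 3, 5 were higher and the median was -0.06. Tfrc, the transferrin receptor, was at 141, 154 and 308 CPM in control and 216, 251 and 356 CPM in APAP+IBU. Alad, the second enzyme of heme synthesis, was at 187, 173 and 96.9 CPM in control and 111, 138 and 246 CPM in APAP+IBU, so that unlike Alas2 it was lowest in control 3. Slc25a37, the mitochondrial iron importer mitoferrin, was at 58.4, 82.0 and 199 CPM in control and 72.6, 98.5 and 296 CPM in APAP+IBU, and its log2 fold change was 0.46 (standard error 0.60, edgeR adjusted p = 0.796).

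Of 18 other membrane genes, 15 were higher in APAP+IBU and 15 were highest in both libraries numbered 3, the largest share of the 5 other lists, with a median log2 fold change of 0.24. Replicates 1 and 2 alone had 4 of 18 higher, with a median of -0.18. Epb41, Tmod3 and Mpp1, which many tissues express, stayed within a 2-fold range, Epb41 at 184 to 257 CPM. Sptb, the erythroid beta-spectrin, was at 38.1, 34.8 and 55.7 CPM in control and 20.5, 38.1 and 109 CPM in APAP+IBU.

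Of 14 other red cell proteins, 8 were higher in APAP+IBU and 9 were highest in both libraries numbered 3, with a median log2 fold change of 0.08. Without the libraries numbered 3, 1 of 14 was higher and the median was -0.38. Prdx2, the red cell peroxiredoxin that many cells also make, was at 534, 527 and 414 CPM in control and 290.3, 327 and 583 CPM in APAP+IBU. Bpgm, the bisphosphoglycerate mutase of red cells, was at 48.1, 72.0 and 63.9 CPM in control and 32.2, 42.3 and 62.4 CPM in APAP+IBU. Neither was highest in both libraries numbered 3.

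Of 9 tested genes downstream of the erythropoietin receptor, 3 were higher and 6 lower in APAP+IBU, 1 was highest in both libraries numbered 3, and the median log2 fold change was -0.02, or -0.14 with replicates 1 and 2 only. Jak2, the kinase bound to the receptor, was at 48.9, 53.0 and 76.4 CPM in control and 69.4, 66.9 and 65.6 CPM in APAP+IBU. Bcl2l1, which encodes the survival protein BCL-XL, was at 84.7, 88.8 and 63.6 CPM in control and 57.2, 68.5 and 75.9 CPM in APAP+IBU. The hormone gene Epo did not pass the filter and had at most 0.104 CPM.

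With replicates 1 and 2 of each group, edgeR called 12 of these 67 genes at an adjusted p under 0.05, 8 lower and 4 higher in APAP+IBU, against 27.2% of all genes tested in that fit. Among the most abundant, Prdx2 fell by a log2 of 0.76 (edgeR adjusted p = 0.00625) and Alad by 0.52 (0.0198), and Tfrc rose by 0.68 (0.00714). After correction for gene length and GC content, 6 of 67 were called, all lower. Among all 20567 genes of that corrected fit, 14.6% were called in either direction, 1221 higher and 1791 lower. Prdx2 was still called, at -0.68 (edgeR adjusted p = 0.0107), while Alad was at -0.07 (0.681) and Tfrc at 0.17 (0.319).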

How the data were processed

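Messenger RNA of 3 control and 3 APAP+IBU pools of 13.5 dpc ovaries was measured. The authors made TruSeq stranded libraries, mapped paired reads to mm10 with TopHat2 2.0.14 and Bowtie2 2.1.0, counted them with HTSeq 0.6.1 on Ensembl genes and deposited raw counts without normalisation. The strand setting is not given in the sources used here. Each sample was grouped by its exposure label and numbered by its title.

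From these counts, edgeR 4.0.16 (R 4.3.3) was run with its expression filter, TMM scaling and the quasi-likelihood test with Benjamini-Hochberg adjustment over 20167 genes. It was checked on counts simulated with a single dispersion shared by all genes, which does not cover genes as spread as the 7 described here. DESeq2 1.42.0 (Wald test), other scalings and filters, a replicate block, a length and GC correction (loess span 0.3) and leaving out libraries were alternatives. A prior count of 1 was added for log2 CPM. Gene names, positions and lengths came from GENCODE M21 on GRCm38, the mm10 assembly, and promoter windows from RefSeq. Total counts were 37811968 to 48954631. Libraries of a group differed by a chi-square per degree of freedom of 18.8 to 158, so none was a duplicate.

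The genes and lists (other erythroid genes by role, globins, and markers of hepatocytes, megakaryocytes, mast cells, macrophages, endothelium, ovary, germ cells, Sertoli cells and spermatids) were chosen with earlier results of these data known. Within a list the genes named were taken from the 4 with the highest mean CPM, except Epo, Mcpt1, Hba-a2 and Aif1, which were named after their values were seen, and the 10 genes nearest to the mean of the 7 were the other genes of at least 1 CPM with the smallest SD of the log2 difference over the libraries.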

Additional observations from a re-analysis of the deposited data

How the results depend on the processing

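The 7 genes had 0 calls under every alternative run, and their mean levels in each group moved by less than the spread between replicates with DESeq2 size factors and with globins left out of the library sizes. No scaling shifted the median log2 fold change of all genes by more than 0.035. Leaving out 1 library at a time, the log2 fold change ran from -1.24 to 0.46 for Gata1, -1.38 to 1.39 for Klf1, -0.96 to 0.19 for Alas2, -1.38 to 1.18 for Slc4a1, -0.72 to 1.06 for Epor, -0.94 to 1.09 for Ank1 and -1.43 to 1.63 for Epb42. The sign turned for 6 genes without APAP+IBU 3 (Gata1 -1.24, Klf1 -1.38, Slc4a1 -1.38, Epor -0.72, Ank1 -0.94, Epb42 -1.43), for Alas2 without APAP+IBU 1 (0.19), and for Gata1 and Epb42 without control 1 (-0.22 and -0.11) or control 2 (-0.09 and -0.01). Gata1 was at -0.02 with upper quartile scaling and at -0.02 with the length and GC correction. With replicates 1 and 2 only, the same 6 genes turned (Gata1 -0.75, Klf1 -0.49, Slc4a1 -0.64, Epor -0.48, Ank1 -0.34, Epb42 -0.08), and with the length and GC correction added, a choice made after seeing the data, Gata1 (-0.44), Slc4a1 (-0.54), Ank1 (-0.49) and Epb42 (-0.22).

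The replicate numbers were used as a replicate block only as an alternative. Over all tested genes, deviations from the group means were not shared within a number (correlation -0.069, -0.015 and -0.044), and 0 libraries correlated best with their own number. For the 7 genes, however, the standard errors were smaller under the block, 0.275 to 0.517 against 0.521 to 1.0 without it. The 95% interval of Epb42 ran from -0.65 to 0.68 under the block. Under the block Gata1 was at -0.34, Klf1 at -0.07 and Slc4a1 at -0.24, and with the length and GC correction as well Gata1 was at -0.23, Slc4a1 at -0.22, Ank1 at -0.08 and Epb42 at -0.05. The number of all tested genes with an adjusted p under 0.05 was 0 in edgeR, 2 under the block and 34 under the block with the correction.

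That number was 192 with DESeq2, 120 with all genes of at least 1 count, 0 to 1064 when 1 library was left out (1064 without control 3), 5607 with replicates 1 and 2 only and 3012 with the correction added. The number of called genes among the other erythroid genes was 0 of 67, except for 12 with replicates 1 and 2 only and 6 with the correction added. The cause of these shifts was not tested.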
